A study of Mus musculus with 12 samples.

Results

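The genes described are 55 ribosome biogenesis and nucleolar genes, taken by symbol from the 25759 genes of the deposited table. They fall by role into 6 genes of RNA polymerase I and its factors, 8 genes of the small nucleolar ribonucleoproteins (snoRNPs), 18 genes of small subunit assembly, 17 genes of large subunit assembly and 6 other nucleolar proteins. All 55 are protein-coding, all 55 passed the filter on low counts that left 12805 genes to test, and the rule that chose them used no measured value, although earlier results of these data were known when the list was drawn up.

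Ribosomes are built in the nucleolus. RNA polymerase I transcribes one long ribosomal RNA precursor, snoRNPs guide the methylation and pseudouridylation of its nucleotides, and many assembly factors then fold, cut and export the small and large subunits. Rapidly dividing cells, such as the progenitors of the gastric glands, spend much of their energy on this work, and many of these genes are known targets of the growth regulator MYC, which binds the E-box sequence CACGTG.

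RNA was sequenced from gastric organoids of mouse, which are gel-grown epithelial cultures derived from the stomach, in 4 groups of 3 libraries each. Organoids were incubated for 4 h with Fusobacterium nucleatum, a mouth bacterium also found in tumours (Fn in the plots), with Helicobacter pylori, the stomach pathogen (Hp), or with Neisseria subflava, a commensal of the mouth and throat (Ns), and the fourth group was untreated. All 4 groups shared a growth protocol that ended on matrigel in medium free of antibiotics and growth factors. The mouse strain, its age, the bacterial strains and doses, and whether the 3 libraries of a group came from separate cultures are not given in the sources used here, so p-values measure the spread between libraries, which may be technical.

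Total counts ranged from 16955155 to 23236260 per library, and the 55 genes took 0.611 to 0.854% of them. All 19 gastric epithelial markers, among them Epcam, Krt8, Tff1 and Gkn1, had counts in every library, although Gif, made by chief cells in mouse, averaged only 1.03 TPM. Pancreatic transcripts were also present and differed between groups: 19 acinar markers summed to 20.6 to 27.2 TPM with Fusobacterium, 27.6 to 54.3 with Helicobacter, 39.3 to 45.5 with Neisseria and 89.4 to 110.5 in untreated organoids, and 18 islet markers summed to 23.2 to 26.5 TPM with Fusobacterium, 18.1 to 226 with Helicobacter, 21.2 to 24.4 with Neisseria and 323 to 432 in untreated organoids. The high Helicobacter islet value was that of replicate 1. The part of these markers in the comparisons with untreated organoids was not tested. Of the acinar markers, Prss1 was at 0 in every library, while Clps and Cela1 had counts in all. Fusobacterium and Neisseria libraries had counts for 5 or 6 of the 19 acinar markers, Helicobacter replicate 1 for 16 and untreated libraries for 16 or 17. The islet marker Pdx1 had 297 to 414 counts in every library. The whole islet list had 372 to 443 counts with Fusobacterium and 439 to 467 with Neisseria. Immune markers summed to 99.3 to 101 TPM with Fusobacterium, 202 to 216 with Helicobacter, 278 to 283 with Neisseria and 203 to 209 in untreated organoids, with averages over all 12 libraries of 168 TPM for Cd14 and 29.5 TPM for Cd68, and their part was not tested either. Mesenchymal markers summed to at most 9.65 TPM and endothelial ones to at most 2.44 TPM in any library. The comparisons between bacteria set no group against the untreated libraries, which still entered the scaling and the estimate of the spread in those fits.

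Most of the 55 transcripts were lower after 4 h with Fusobacterium than in untreated organoids. With Helicobacter 13 (23.6%) were called lower, against 8.36% of all tested genes. With Neisseria fewer were lower than with Fusobacterium under the scaling used here (trimmed mean of M-values, TMM), but more were when libraries were scaled by their totals alone. With Fusobacterium 42 genes fell and 6 rose, and the median change was -0.46 on the log2 scale. The 3 comparisons share the same untreated libraries. Changes are log2 fold changes ± standard error, and a gene is called where the p adjusted by the Benjamini-Hochberg method over all 12805 tested genes lies below 0.05 in edgeR's quasi-likelihood test.

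Of the 55, 76.4% were called lower and 10.9% higher with Fusobacterium, against 32.4% lower and 32.8% higher among all tested genes. The median over all tested genes was -0.003. Gastric epithelial markers were also lower: 14 of 19 (73.7%) fell and 2 rose with Fusobacterium, with a median of -0.63, among them Gkn1 (-1.01), Foxa1 (-1.34) and Cldn18 (-0.63), while Epcam (0.004) and Krt8 (0.04) were not called. Changes over the 19 ran from -1.86 to 1.83, and 10 of the falls and 1 of the 2 rises reached 1.5-fold. The part of these markers in the fall of the 55 was not tested. A fall of at least 1.5-fold was called for 22 of the 55 and for 13.1% of all tested genes, and 6 of the 55 fell at least 2-fold. With Helicobacter 13 of the 55 fell and 2 rose, against 8.36% and 10.5% of all tested genes, and the median change was -0.10. With Neisseria 33 fell and 4 rose, against 25.5% and 25.4% of all tested genes, with a median of -0.24. Without Neisseria replicate 1 the rises were 2. Of the 19 gastric epithelial markers, Helicobacter libraries had 8 lower and 4 higher, and Neisseria libraries 6 lower and 8 higher, or 10 lower and 3 higher if libraries were scaled by their totals alone. A fall of at least 1.5-fold was called with Neisseria for 6 of the 55 and for 7.84% of all tested genes, which is a share close to the background. Bulk RNA measures an average, so fewer cells of a type and less RNA per cell cannot be told apart.

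The scaling of libraries bears on the Neisseria and Helicobacter counts. With no scaling beyond the library total, the median of all tested genes shifted to -0.18 with Neisseria and -0.06 with Helicobacter, and 47 of the 55 were then lower and 1 higher with Neisseria and 24 lower and 2 higher with Helicobacter. With Fusobacterium 41 were lower and 6 higher without scaling, so the order of the Neisseria and Fusobacterium counts turned round. It did so too with limma on log2(TPM + 1), where 40 were lower with Fusobacterium and 50 with Neisseria. Relative to the median of all genes, the median of the 55 was -0.22 with Neisseria and -0.10 with Helicobacter under either scaling, and -0.46 with Fusobacterium.

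**Figure D1:**
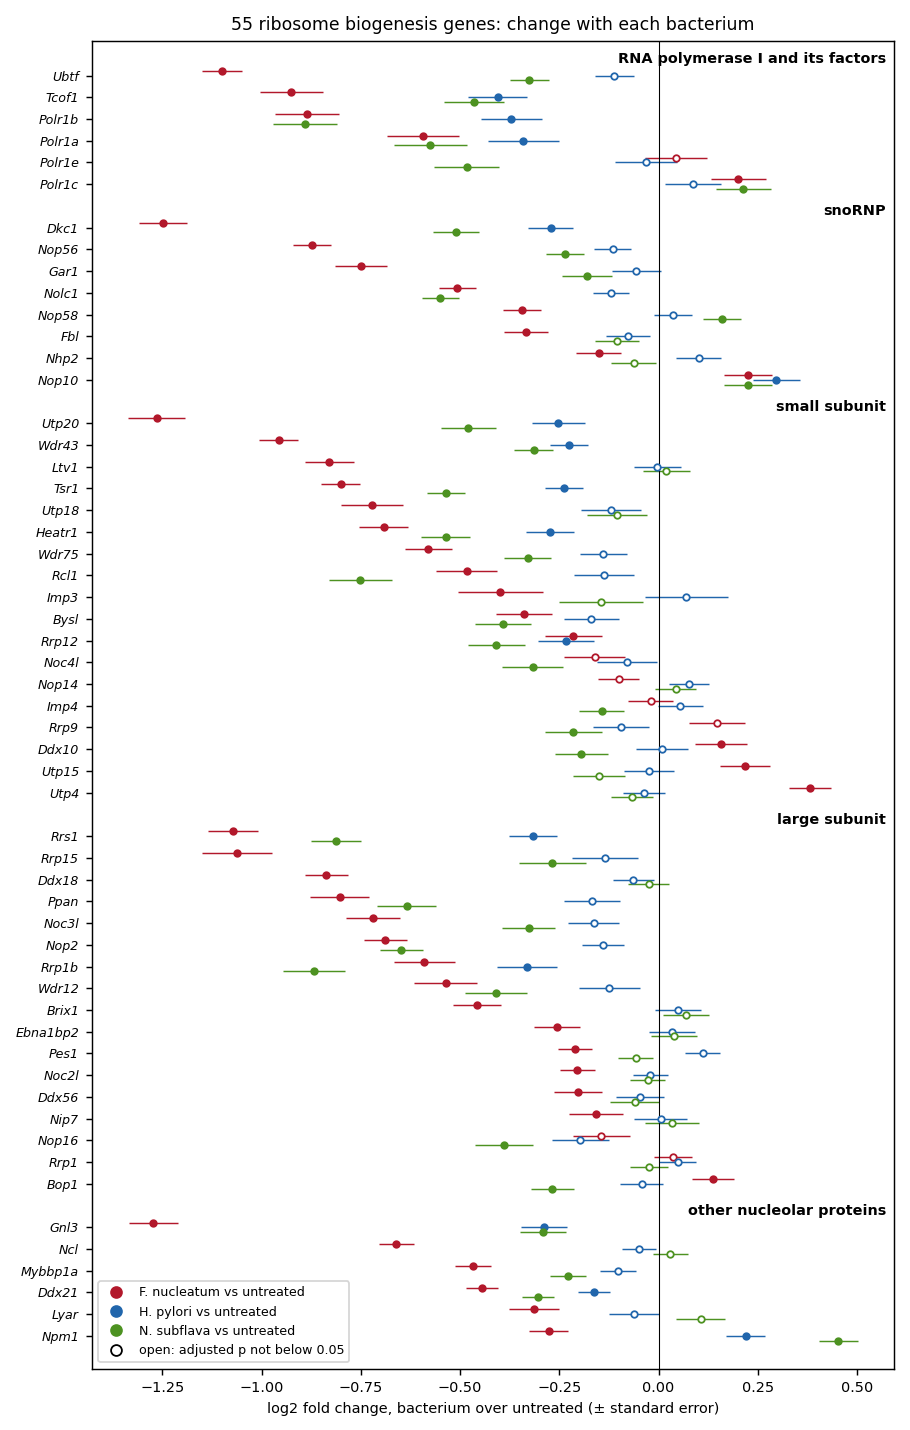
Log2 fold change (± standard error) of each of the 55 genes, with Fusobacterium, Helicobacter or Neisseria over untreated organoids (n = 3 libraries each), grouped by role; open points are not called. The Fusobacterium points run from -1.27 to 0.38 and mostly lie left of the others, while Helicobacter points stay between -0.41 and 0.30.

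The genes fell into a few patterns. Called lower with Fusobacterium and not called with the others were 14 genes (25.5%), among them Ltv1, Ddx18 and Ncl, against 12.9% of all tested genes. Lower in all 3 comparisons were 13 genes (23.6%), among them Gnl3, Dkc1 and Utp20, against 4.09% of all tested genes. Another 13 (23.6%) were lower with Fusobacterium and Neisseria but were not called with Helicobacter, against 9% of all tested genes. The 5 genes (9.09%) called lower with Neisseria and not called with the others compare with 5.33% of all tested genes. The other 10 genes included Nop10, which was higher with each bacterium, Npm1, whose direction differed between bacteria, and Nop14 and Rrp1, which were called in none of the 3. A call in one comparison and none in another does not show a difference between them, which the direct comparisons between bacteria further on test. When the 4 groups were tested together for any difference, 53 of the 55 were called, as were 80.8% of all tested genes.

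Among the 55, Npm1 was by far the most abundant per length, at 1866 ± 57.1 TPM in untreated organoids (SD, n = 3), which was 28.5% of their summed level. Ncl followed at 431 ± 6.53 TPM and the snoRNP methyltransferase gene Fbl at 328 ± 11.5 TPM. Nop56 at 206 ± 5.66 TPM and Rrp1 at 205 ± 4.23 TPM did not differ beyond their spread. The lowest was Wdr12 at 10.3 ± 0.971 TPM. Their summed TPM ranged from 5152 to 5253 with Fusobacterium, 6136 to 6355 with Helicobacter, 5839 to 5902 with Neisseria and 6483 to 6658 in untreated organoids, with no overlap between any groups. TPM fixes the total of each library, so these sums carry the scaling shift described for Neisseria and Helicobacter. As counts per unit of TMM-scaled library size (normalised CPM), the sums of those groups and of untreated organoids overlapped. They were 7598 to 8194 with Helicobacter, 7835 to 8176 with Neisseria and 7897 to 8267 in untreated organoids. Only the Fusobacterium sums, at 5852 to 5984, stayed apart on both scales. Npm1 weighs heavily in these sums and was called higher with Helicobacter and Neisseria, so that overlap does not describe the other genes. The median change of the 55 over untreated organoids was -0.10 with Helicobacter and -0.24 with Neisseria.

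The promoters of 4 genes are shown because they belong to 2 of the genes with the largest falls and 2 that rose with Fusobacterium. They are the 250 bases before the annotated start of Gnl3 and Dkc1, which fell by over 2-fold, of Utp4, which had the largest rise with Fusobacterium, and of Nop10, which rose with all 3 bacteria. Sequences are from RefSeq on GRCm38.p6, 5′ to 3′ on the gene's strand, and capitals mark CCGGAAG or its reverse complement CTTCCGG, a sequence bound by ETS family factors.
Gnl3 (chr14:31019132-31019381, minus strand): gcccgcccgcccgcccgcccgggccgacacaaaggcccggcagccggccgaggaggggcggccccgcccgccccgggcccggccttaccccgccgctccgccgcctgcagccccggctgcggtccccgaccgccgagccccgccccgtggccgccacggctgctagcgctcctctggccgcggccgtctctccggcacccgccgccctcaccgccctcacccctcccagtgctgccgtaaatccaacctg
Dkc1 (chrX:75095604-75095853, plus strand): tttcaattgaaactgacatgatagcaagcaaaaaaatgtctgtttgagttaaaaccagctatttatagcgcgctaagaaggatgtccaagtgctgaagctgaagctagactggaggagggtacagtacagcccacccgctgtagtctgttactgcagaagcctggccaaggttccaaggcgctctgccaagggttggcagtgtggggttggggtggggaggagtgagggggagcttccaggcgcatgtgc
Utp4 (chr8:106893390-106893639, plus strand): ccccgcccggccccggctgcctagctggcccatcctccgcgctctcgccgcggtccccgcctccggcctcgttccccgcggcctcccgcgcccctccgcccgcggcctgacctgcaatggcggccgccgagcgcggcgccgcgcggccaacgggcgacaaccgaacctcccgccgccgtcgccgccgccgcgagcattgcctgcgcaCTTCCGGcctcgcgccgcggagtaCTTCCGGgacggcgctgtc
Nop10 (chr2:112261676-112261925, plus strand): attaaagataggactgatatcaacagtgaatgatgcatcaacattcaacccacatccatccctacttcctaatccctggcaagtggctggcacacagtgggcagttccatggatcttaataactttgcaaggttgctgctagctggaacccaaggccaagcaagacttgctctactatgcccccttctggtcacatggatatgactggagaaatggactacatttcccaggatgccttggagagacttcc
The Gnl3 and Utp4 windows held 81.6% and 80.4% G or C, and those of Dkc1 and Nop10 52.0% and 47.2%. Only the Utp4 window held a capitalised match among these 4 stretches.

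The E-box CACGTG was searched in 300 bases per gene, 250 before to 50 after the start, in the 49 of the 55 genes with a promoter in the table. It was found in 10 of them (20.4%), against 11.6% of the 9961 tested genes with a promoter and 8.09% of all 27025 genes. CACGTG is its own reverse complement, so both strands are covered at once. The 10 matches are shown because this is the MYC-type site of the background above, with the E-box in capitals and up to 10 bases on each side on the gene's strand.
Imp4 (chr1:34439698-34439723, plus strand): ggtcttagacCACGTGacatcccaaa
Ltv1 (chr10:13193094-13193119, minus strand): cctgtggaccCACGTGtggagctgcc
Mybbp1a (chr11:72441357-72441376, plus strand): cttctgagccCACGTGtttg
Nop2 (chr6:125131813-125131838, plus strand): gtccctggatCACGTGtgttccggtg
Pes1 (chr11:3963967-3963992, plus strand): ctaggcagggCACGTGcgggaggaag
Tsr1 (chr11:74898094-74898119, plus strand): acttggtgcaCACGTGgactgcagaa
Utp18 (chr11:93885771-93885796, minus strand): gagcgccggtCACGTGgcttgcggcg
Utp20 (chr10:88826765-88826787, minus strand): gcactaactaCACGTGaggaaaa
Utp4 (chr8:106893645-106893670, plus strand): cgcaagcgcgCACGTGgggccggggc
Wdr43 (chr17:71616222-71616247, plus strand): cccgggcgaaCACGTGgctgccgcgg
Its first base lay from 121 bases before the start, -121 in Imp4, to 41 bases after it in Mybbp1a. Genes with large falls, such as Utp20 and Wdr43, carried it, and so did the rising gene Utp4. With Fusobacterium 8 of these 10 genes fell and 1 rose, with a median of -0.71, and of the 39 without it 29 fell and 4 rose, with a median of -0.45. With Neisseria 6 of the 10 fell, with a median of -0.19, and 23 of the 39, with a median of -0.24, so the order of the medians turned round. These counts are descriptions of a match in a short window, not of binding.

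Another 3 short sequences were searched on both strands of the same windows. CCGGAAG, the ETS type site, was found in 19 of the 49 (38.8%), against 19.9% of tested genes and 9.93% of all genes. It stood in genes that fell and in genes that rose: 15 of the 19 fell and 3 rose with Fusobacterium, and 22 and 2 of the 30 without it. The TATA box form TATAAA was in 6.12% of the 49, against 8.96% of tested genes and 15.7% of all. The core of the nuclear respiratory factor site, TGCGCA, was in 18.4%, against 15.9% of tested genes and 8.79% of all.

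RNA polymerase I and its factors held the lowest median of the 5 roles with Fusobacterium (-0.74), Helicobacter (-0.23) and Neisseria (-0.47). With Fusobacterium 4 of the 6 fell and 1 rose, with Helicobacter 3 fell, and with Neisseria 5 fell and 1 rose. The counts of each role stand beside these shares of all tested genes. With Fusobacterium 32.4% fell and 32.8% rose, with Helicobacter 8.36% and 10.5%, and with Neisseria 25.5% and 25.4%. Levels per library are normalised CPM, that is counts per unit of TMM-scaled library size. Ubtf (ENSMUSG00000020923, chromosome 11, 102304560 to 102319742, minus strand) encodes the factor that binds the ribosomal DNA and opens it for polymerase I. Its levels were 70.8, 65.9 and 70.2 normalised CPM with Fusobacterium, 142, 129 and 139.8 with Helicobacter, 112, 118 and 124 with Neisseria, and 147, 146 and 149.6 in untreated organoids. Every Fusobacterium library was below every other library, and the other 3 groups lay closer together. The change was -1.10 ± 0.05 with Fusobacterium (adjusted p = 9.18e-15), -0.33 ± 0.05 with Neisseria (adjusted p = 6.18e-06) and -0.11 ± 0.05 with Helicobacter, which was not called (adjusted p = 0.114).

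Polr1b (ENSMUSG00000027395, chromosome 2, 129100995 to 129126594, plus strand) and Polr1a (ENSMUSG00000049553, chromosome 6, 71909053 to 71984935, plus strand) encode the catalytic core of the polymerase. Polr1b measured 28.0, 28.3 and 22.9 normalised CPM with Fusobacterium, 37.2, 38.7 and 37.4 with Helicobacter, 25.9, 29.3 and 23.8 with Neisseria, and 49.5, 49.5 and 47.6 in untreated organoids. Fusobacterium and Neisseria libraries overlapped each other and lay below those with Helicobacter, which lay below the untreated ones. The changes were -0.89 ± 0.08 with Fusobacterium (adjusted p = 1.48e-09), -0.37 ± 0.08 with Helicobacter (adjusted p = 0.0014) and -0.89 ± 0.08 with Neisseria (adjusted p = 2.14e-09). Polr1a measured 58.0, 60.4 and 57.0 normalised CPM with Fusobacterium, 70.1, 75.5 and 63.5 with Helicobacter, 48.5, 63.6 and 66.1 with Neisseria, and 90.4, 90.0 and 84.3 in untreated organoids. All 9 libraries with bacteria were below the 3 untreated ones, and the Neisseria libraries overlapped those of both other bacteria. Polr1a fell by 1.51-fold with Fusobacterium (adjusted p = 2.82e-05), 1.27-fold with Helicobacter (adjusted p = 0.0137) and 1.49-fold with Neisseria (adjusted p = 6.19e-05). The Helicobacter call was lost without Helicobacter replicate 3 or without untreated replicate 1 or 2, with adjusted p up to 0.0658.

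Tcof1 (ENSMUSG00000024613, chromosome 18, 60813755 to 60848971, minus strand) encodes treacle, a nucleolar protein needed for ribosomal RNA transcription and named for Treacher Collins syndrome in humans. It measured 28.4, 29.7 and 28.2 normalised CPM with Fusobacterium, 36.8, 45.7 and 41.2 with Helicobacter, 36.0, 39.3 and 43.5 with Neisseria, and 56.5, 53.9 and 53.2 in untreated organoids. The untreated libraries were the highest, the Fusobacterium ones the lowest, and those with Helicobacter and Neisseria overlapped between them. Its change was -0.92 ± 0.08 with Fusobacterium (adjusted p = 4.23e-10), -0.41 ± 0.08 with Helicobacter (adjusted p = 0.000429) and -0.47 ± 0.08 with Neisseria (adjusted p = 1.85e-05), and the Helicobacter value was the largest fall of any of the 55 genes with that bacterium.

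Polr1c, a subunit shared with RNA polymerase III, moved the other way. It measured 83.5, 84.1 and 83.0 normalised CPM with Fusobacterium, 88.6, 69.5 and 73.2 with Helicobacter, 88.8, 85.4 and 78.5 with Neisseria, and 70.5, 73.7 and 73.9 in untreated organoids. The Fusobacterium and Neisseria libraries lay above the untreated ones, while those with Helicobacter overlapped both. The rise was 0.20 ± 0.07 with Fusobacterium (adjusted p = 0.0154) and 0.21 ± 0.07 with Neisseria (adjusted p = 0.014), and the Helicobacter value of 0.09 ± 0.07 was not called (adjusted p = 0.415). Without untreated replicate 1 neither rise was called (adjusted p = 0.0667 with Fusobacterium), the Neisseria rise was also lost without Neisseria replicate 1, where its adjusted p was highest at 0.0682, and with no scaling beyond the library total it was 0.047 (adjusted p = 0.567). Polr1e, a subunit of polymerase I alone, measured 23.4, 24.0 and 23.2 normalised CPM with Fusobacterium, 21.6, 23.9 and 21.4 with Helicobacter, 16.3, 16.7 and 15.9 with Neisseria, and 22.6, 21.6 and 24.3 in untreated organoids. Only the Neisseria libraries stood apart, below the 9 others. Its change with Neisseria was -0.48 ± 0.08 (adjusted p = 2.71e-05), and it was not called with Fusobacterium (0.04 ± 0.08, adjusted p = 0.641) or Helicobacter (-0.03 ± 0.08, adjusted p = 0.82).

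**Figure D2:**
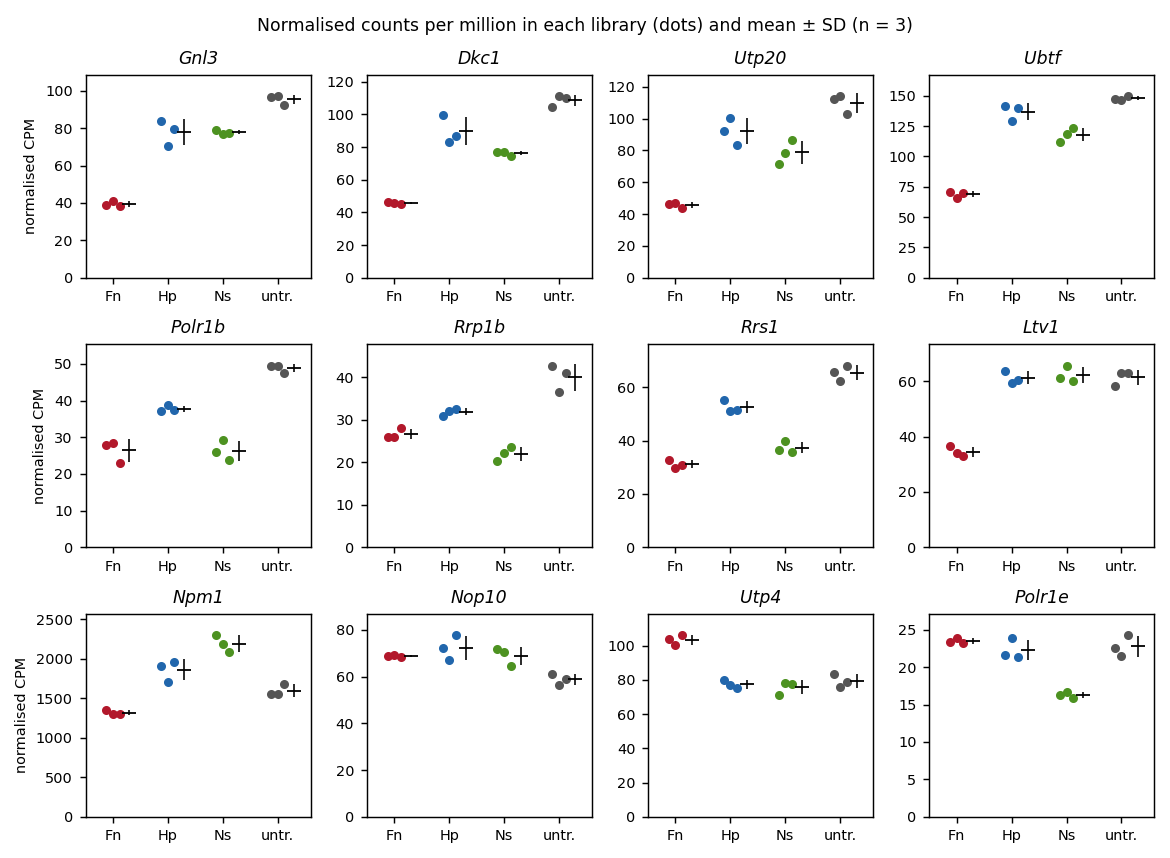
Normalised CPM of 12 of the genes in each library (dots) with mean ± SD (n = 3), for Fn, Hp, Ns and untreated (untr.) organoids; each axis starts at 0. Gnl3, Dkc1, Utp20 and Ubtf have their lowest dots with Fn, Polr1b is equally low with Fn and Ns, Rrp1b is lowest with Ns, and Npm1 is highest with Ns.

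The snoRNP genes mostly fell with Fusobacterium, 7 of 8, with 1 rise and a median of -0.43. With Neisseria 4 fell and 2 rose (median -0.14), and with Helicobacter 1 fell and 1 rose (median -0.07). The Helicobacter shares, 12.5% each way, lay near those of all tested genes. Dkc1 (ENSMUSG00000031403, chromosome X, 75095854 to 75109777, plus strand), dyskerin, is the pseudouridine synthase of the H/ACA class. It measured 46.3, 45.6 and 45.0 normalised CPM with Fusobacterium, 99.4, 83.1 and 86.8 with Helicobacter, 76.8, 76.7 and 74.8 with Neisseria, and 105, 111 and 109.8 in untreated organoids. The 4 groups did not overlap in the order Fusobacterium, Neisseria, Helicobacter and untreated from low to high. The change was -1.25 ± 0.06 with Fusobacterium (adjusted p = 1.79e-14), -0.27 ± 0.06 with Helicobacter (adjusted p = 0.00134) and -0.51 ± 0.06 with Neisseria (adjusted p = 8.24e-08).

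Its partners in the same particle changed by other amounts. Gar1 had -0.75 ± 0.07 with Fusobacterium (adjusted p = 7.91e-10) and Nhp2 had -0.15 ± 0.06 (adjusted p = 0.0238), a call lost without Fusobacterium replicate 2 or 3 or untreated replicate 3 (adjusted p up to 0.159). Nop10 (ENSMUSG00000027133, chromosome 2, 112261926 to 112263269, plus strand), the smallest protein of the particle, measured 68.7, 69.4 and 68.5 normalised CPM with Fusobacterium, 72.1, 67.3 and 77.7 with Helicobacter, 71.8, 70.4 and 64.3 with Neisseria, and 61.1, 56.3 and 59.1 in untreated organoids. All 9 libraries with bacteria were above the 3 untreated ones, and the bacterial groups overlapped. Nop10 rose by 0.23 ± 0.06 with Fusobacterium (adjusted p = 0.00209), 0.30 ± 0.06 with Helicobacter (adjusted p = 0.000914) and 0.23 ± 0.06 with Neisseria (adjusted p = 0.00299), the largest rise of any of the 55 with Helicobacter. With no scaling beyond the library total the Neisseria rise was 0.059 (adjusted p = 0.389), which is not called.

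Of the box C/D class, which methylates ribose, Fbl encodes the methyltransferase. Fbl measured 141, 127 and 126 normalised CPM with Fusobacterium, 163, 148 and 161 with Helicobacter, 162, 158 and 143 with Neisseria, and 160.4, 161 and 176 in untreated organoids. Fusobacterium libraries were the lowest, and the other 3 groups overlapped. It fell by 1.26-fold with Fusobacterium (adjusted p = 1.43e-05) and was not called with Helicobacter (-0.08 ± 0.06, adjusted p = 0.356) or Neisseria (-0.11 ± 0.06, adjusted p = 0.119). With no scaling beyond the library total, Fbl with Fusobacterium over Neisseria was -0.052 (adjusted p = 0.393), which is not called. Its scaffold partners differed from each other: Nop56 was -0.87 ± 0.05 with Fusobacterium (adjusted p = 2.11e-13) and -0.24 ± 0.05 with Neisseria (adjusted p = 0.000202), while Nop58 was -0.34 ± 0.05 with Fusobacterium (adjusted p = 1.41e-06) and 0.16 ± 0.05 with Neisseria (adjusted p = 0.00741). The Nop58 rise with Neisseria turned to -0.0059 with no scaling beyond the library total, and without Neisseria replicate 1 it was not called (adjusted p = 0.0516). Nolc1, a chaperone of both classes, fell with Fusobacterium (-0.51 ± 0.05, adjusted p = 1.66e-09) and Neisseria (-0.55 ± 0.05, adjusted p = 6.76e-10).

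Of the 18 small subunit genes, 11 were lower and 3 higher with Fusobacterium (median -0.37), 5 were lower with Helicobacter (median -0.11) and 12 were lower with Neisseria (median -0.26). Utp20 (ENSMUSG00000004356, chromosome 10, 88746607 to 88826804, minus strand), a very large scaffold of the small subunit processome, measured 46.4, 47.0 and 43.6 normalised CPM with Fusobacterium, 92.4, 100.2 and 83.7 with Helicobacter, 71.5, 78.7 and 86.3 with Neisseria, and 113, 114 and 103 in untreated organoids. Every Fusobacterium library was below every library of the other groups, the untreated libraries were the highest, and those with Helicobacter and Neisseria overlapped. The change was -1.26 ± 0.07 with Fusobacterium (adjusted p = 1.35e-12), -0.25 ± 0.07 with Helicobacter (adjusted p = 0.0111) and -0.48 ± 0.07 with Neisseria (adjusted p = 4.62e-06). The Helicobacter call was lost without Helicobacter replicate 3 or untreated replicate 1 or 2 (adjusted p up to 0.0694).

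The UTP-A module, the first to bind the nascent precursor, did not move as one. Utp4 (ENSMUSG00000041438, chromosome 8, 106893636 to 106923088, plus strand) measured 104, 100.2 and 106 normalised CPM with Fusobacterium, 79.9, 77.1 and 75.1 with Helicobacter, 71.3, 78.5 and 77.8 with Neisseria, and 83.4, 75.8 and 78.8 in untreated organoids. Fusobacterium libraries were above all others, which overlapped. Its rise with Fusobacterium was 0.38 ± 0.05 (adjusted p = 1.2e-06), the largest among the 55, and it was not called with Helicobacter (-0.04 ± 0.05, adjusted p = 0.679) or Neisseria (-0.07 ± 0.05, adjusted p = 0.314). Utp15 of the same module measured 47.8, 53.2 and 49.8 normalised CPM with Fusobacterium, 43.4, 44.7 and 39.3 with Helicobacter, 38.1, 39.6 and 39.3 with Neisseria, and 42.7, 41.9 and 44.9 in untreated organoids. It was again highest with Fusobacterium, without overlap, at 0.22 ± 0.06 (adjusted p = 0.00452). By contrast the other 3 of the listed module members fell with Fusobacterium: Wdr43 changed by -0.96 ± 0.05 (adjusted p = 9.25e-14), Heatr1 by -0.69 ± 0.06 (adjusted p = 1.11e-09) and Wdr75 by -0.58 ± 0.06 (adjusted p = 1.2e-08).

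Ltv1, a factor bound to late small subunit precursors, measured 36.5, 34.2 and 32.9 normalised CPM with Fusobacterium, 63.8, 59.3 and 60.6 with Helicobacter, 61.1, 65.6 and 60.0 with Neisseria, and 58.2, 63.0 and 63.0 in untreated organoids. Only the Fusobacterium libraries were low, and the other 3 groups overlapped. The change was -0.83 ± 0.06 with Fusobacterium (adjusted p = 5.02e-11), -0.00 ± 0.06 with Helicobacter (adjusted p = 0.984) and 0.02 ± 0.06 with Neisseria (adjusted p = 0.8). Rcl1, a processome protein related to RNA cyclases, measured 19.2, 18.7 and 20.5 normalised CPM with Fusobacterium, 24.0, 25.3 and 24.8 with Helicobacter, 15.7, 15.7 and 17.1 with Neisseria, and 25.9, 27.3 and 28.3 in untreated organoids. It was lowest with Neisseria, next with Fusobacterium, and highest in untreated organoids, with no overlap between these groups. The fall was -0.48 ± 0.08 with Fusobacterium (adjusted p = 9.19e-06) and -0.75 ± 0.08 with Neisseria (adjusted p = 2.96e-08), and the Helicobacter value of -0.14 ± 0.08 was not called (adjusted p = 0.213).

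Imp3, whose yeast counterpart helps the guide RNA of the processome to pair with the precursor, had the highest TPM of the small subunit genes and measured 33.1, 27.8 and 36.4 normalised CPM with Fusobacterium, 43.5, 40.1 and 51.1 with Helicobacter, 43.6, 38.1 and 34.0 with Neisseria, and 41.4, 41.7 and 45.0 in untreated organoids. Its Fusobacterium libraries were below the untreated ones but overlapped those with Neisseria. It fell by 1.32-fold with Fusobacterium (adjusted p = 0.00369) and was not called with Helicobacter (adjusted p = 0.688) or Neisseria (adjusted p = 0.273). Among the late assembly factors, Tsr1 changed by -0.80 ± 0.05 with Fusobacterium (adjusted p = 1.11e-12), -0.24 ± 0.05 with Helicobacter (adjusted p = 0.000829) and -0.53 ± 0.05 with Neisseria (adjusted p = 1.72e-09). The DEAD-box helicase gene Ddx10 rose with Fusobacterium (0.16 ± 0.07, adjusted p = 0.0412) and fell with Neisseria (-0.19 ± 0.07, adjusted p = 0.0192). The Fusobacterium call was lost without any 1 of 5 libraries, Fusobacterium replicate 1 or 3 or any untreated replicate (adjusted p up to 0.144), and the Neisseria call without Neisseria replicate 2 or 3 or untreated replicate 1 or 3 (adjusted p up to 0.0819).

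Of the 17 large subunit genes, 14 were lower and 1 higher with Fusobacterium (median -0.46), 2 were lower with Helicobacter (median -0.06) and 9 were lower with Neisseria (median -0.27). The Helicobacter share of 11.8% lay near the 8.36% of all tested genes. Rrs1 (ENSMUSG00000061024, chromosome 1, 9545408 to 9547455, plus strand), which helps to bring the small ribosomal RNA of the large subunit into the particle, measured 32.6, 29.8 and 30.9 normalised CPM with Fusobacterium, 55.0, 50.9 and 51.6 with Helicobacter, 36.5, 39.6 and 35.7 with Neisseria, and 65.8, 62.5 and 68.0 in untreated organoids. On this scale all 4 groups were separate, lowest with Fusobacterium, then Neisseria, then Helicobacter. The change was -1.07 ± 0.06 with Fusobacterium (adjusted p = 8.09e-13), -0.32 ± 0.06 with Helicobacter (adjusted p = 0.000566) and -0.81 ± 0.06 with Neisseria (adjusted p = 1.21e-10). With no scaling beyond the library total, Rrs1 with Fusobacterium over Neisseria was -0.083 (adjusted p = 0.27), which is not called.

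Rrp15 measured 13.5, 16.9 and 14.1 normalised CPM with Fusobacterium, 28.6, 27.2 and 29.0 with Helicobacter, 27.4, 25.2 and 24.7 with Neisseria, and 28.9, 31.0 and 33.3 in untreated organoids. Its Fusobacterium libraries were well below the rest. The change was -1.06 ± 0.09 with Fusobacterium (adjusted p = 3.57e-10) and -0.27 ± 0.08 with Neisseria (adjusted p = 0.0106), and it was not called with Helicobacter (-0.13 ± 0.08, adjusted p = 0.277). The Neisseria call was lost without untreated replicate 3 (adjusted p = 0.064). Ddx18, a DEAD-box helicase, measured 50.8, 48.6 and 50.7 normalised CPM with Fusobacterium, 88.6, 82.3 and 85.6 with Helicobacter, 86.6, 85.1 and 91.9 with Neisseria, and 85.2, 89.9 and 93.2 in untreated organoids. Here too only the Fusobacterium libraries were low. Ddx18 fell by 1.79-fold with Fusobacterium (adjusted p = 3.91e-12) and was not called with Helicobacter (adjusted p = 0.427) or Neisseria (adjusted p = 0.716).

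Other large subunit genes fell with both Fusobacterium and Neisseria. Nop2, a cytosine methyltransferase of the large ribosomal RNA, measured 58.8, 60.9 and 63.4 normalised CPM with Fusobacterium, 94.3, 85.3 and 88.2 with Helicobacter, 59.7, 62.9 and 65.8 with Neisseria, and 98.6, 96.0 and 100.5 in untreated organoids. Fusobacterium and Neisseria libraries overlapped each other and lay below the untreated ones, and those with Helicobacter were between. The change was -0.69 ± 0.05 with Fusobacterium (adjusted p = 1.34e-10) and -0.65 ± 0.05 with Neisseria (adjusted p = 5.87e-10), and it was not called with Helicobacter (-0.14 ± 0.05, adjusted p = 0.07). Ppan measured 24.0, 24.0 and 24.8 normalised CPM with Fusobacterium, 38.3, 35.1 and 39.6 with Helicobacter, 28.2, 28.4 and 25.1 with Neisseria, and 40.7, 40.9 and 45.3 in untreated organoids. On this scale the Fusobacterium libraries were just below the Neisseria ones, and both were below the untreated ones. Ppan changed by -0.80 ± 0.07 with Fusobacterium (adjusted p = 2.07e-09) and -0.63 ± 0.07 with Neisseria (adjusted p = 1.35e-07), with no call with Helicobacter (-0.17 ± 0.07, adjusted p = 0.105). With no scaling beyond the library total its changes were -0.79 with Fusobacterium and -0.80 with Neisseria.

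Rrp1 and Rrp1b are a pair of related genes. Rrp1b measured 26.0, 25.8 and 28.1 normalised CPM with Fusobacterium, 30.9, 32.1 and 32.6 with Helicobacter, 20.3, 22.1 and 23.6 with Neisseria, and 42.7, 36.5 and 40.9 in untreated organoids. It was lowest with Neisseria, then Fusobacterium, then Helicobacter, and no groups overlapped. The change was -0.59 ± 0.08 with Fusobacterium (adjusted p = 4.22e-07), -0.33 ± 0.07 with Helicobacter (adjusted p = 0.0027) and -0.87 ± 0.08 with Neisseria (adjusted p = 1.88e-09). Rrp1 measured 183, 171 and 176 normalised CPM with Fusobacterium, 184, 166 and 183 with Helicobacter, 176, 165 and 166 with Neisseria, and 168, 168 and 179 in untreated organoids. Its groups overlapped throughout, and it was called with none of the bacteria: 0.04 ± 0.05 with Fusobacterium (adjusted p = 0.512), 0.05 ± 0.05 with Helicobacter (adjusted p = 0.522) and -0.02 ± 0.05 with Neisseria (adjusted p = 0.693). How reads shared by related genes were counted is not given in the sources used here.

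The PeBoW complex, which is needed for large subunit processing, had unequal members. Bop1 measured 86.6, 86.8 and 86.6 normalised CPM with Fusobacterium, 71.3, 77.9 and 80.5 with Helicobacter, 66.6, 63.0 and 66.8 with Neisseria, and 82.2, 75.7 and 78.3 in untreated organoids. The Fusobacterium libraries were the highest and the Neisseria ones the lowest. Bop1 rose with Fusobacterium (0.14 ± 0.05, adjusted p = 0.0291) and fell with Neisseria (-0.27 ± 0.05, adjusted p = 0.000259), with no call with Helicobacter (-0.04 ± 0.05, adjusted p = 0.634). The rise was lost without any 1 Fusobacterium library or without untreated replicate 2 or 3 (adjusted p up to 0.131). Its partners fell with Fusobacterium, Wdr12 by 1.45-fold (adjusted p = 2.82e-06) and Pes1 by 1.16-fold (adjusted p = 0.000187).

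All 6 other nucleolar protein genes fell with Fusobacterium (median -0.46), while with Neisseria 3 fell and 1 rose, and with Helicobacter 2 fell and 1 rose. Gnl3 (ENSMUSG00000042354, chromosome 14, 31012433 to 31019152, minus strand), nucleostemin, is a nucleolar GTPase abundant in stem and progenitor cells. It measured 38.9, 41.1 and 38.5 normalised CPM with Fusobacterium, 84.1, 70.6 and 79.8 with Helicobacter, 79.0, 77.2 and 77.7 with Neisseria, and 96.8, 97.1 and 92.5 in untreated organoids. Each Fusobacterium library was below every other library, the Helicobacter and Neisseria ones overlapped, and the untreated ones were the highest. The change was -1.27 ± 0.06 with Fusobacterium (adjusted p = 1.72e-14), the largest fall of the 55 with any bacterium, -0.29 ± 0.06 with Helicobacter (adjusted p = 0.000866) and -0.29 ± 0.06 with Neisseria (adjusted p = 0.000177).

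Npm1 (ENSMUSG00000057113, chromosome 11, 33152287 to 33163206, minus strand), nucleophosmin, is the main protein of the outer nucleolar zone and a histone and ribosomal protein chaperone. It measured 1352, 1308 and 1302 normalised CPM with Fusobacterium, 1914, 1709.8 and 1962 with Helicobacter, 2298, 2188 and 2083 with Neisseria, and 1557, 1554 and 1687 in untreated organoids. The groups did not overlap between bacteria and untreated organoids, and the direction differed: below untreated with Fusobacterium and above it with Helicobacter and Neisseria. The change was -0.28 ± 0.05 with Fusobacterium (adjusted p = 3.46e-05), 0.22 ± 0.05 with Helicobacter (adjusted p = 0.00257) and 0.45 ± 0.05 with Neisseria (adjusted p = 5.14e-08). Ncl, nucleolin, fell with Fusobacterium (-0.66 ± 0.04, adjusted p = 5.33e-12) and was not called with Helicobacter (-0.05 ± 0.04, adjusted p = 0.46) or Neisseria (0.03 ± 0.04, adjusted p = 0.589). The helicase gene Ddx21 fell with all 3 bacteria, -0.45 ± 0.04 with Fusobacterium (adjusted p = 1.33e-09), -0.16 ± 0.04 with Helicobacter (adjusted p = 0.00545) and -0.30 ± 0.04 with Neisseria (adjusted p = 9.52e-07).

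The bacteria were also compared with each other directly. Between Fusobacterium and Neisseria, 32 of the 55 were lower with Fusobacterium and 10 higher, with a median of -0.17, and of all tested genes 34.1% were lower and 32.5% higher. With no scaling beyond the library total the split was 18 lower and 18 higher, and the median of all tested genes was then 0.17. Relative to the median of all tested genes, the median of the 55 was -0.16 with TMM and with no scaling. It was -0.12 with limma on log2(TPM + 1). The counts each way and the median of the 55 taken alone thus depended on the scaling. The larger differences, given next, kept their call and direction with no scaling, but their sizes moved. Without scaling Gnl3 was -0.80 and Bop1 0.58. With TMM Gnl3 was -0.98 ± 0.06 (adjusted p = 1.95e-12), Ltv1 -0.85 ± 0.06 (adjusted p = 3.23e-11) and Ddx18 -0.81 ± 0.05 (adjusted p = 6.3e-12), all lower with Fusobacterium. Higher with Fusobacterium were Polr1e (0.53 ± 0.08, adjusted p = 5.29e-06), Utp4 (0.45 ± 0.05, adjusted p = 1.1e-07) and Bop1 (0.40 ± 0.05, adjusted p = 7.37e-07). All 6 other nucleolar genes were lower with Fusobacterium, of which, with no scaling, Ddx21 changed sign and Mybbp1a was not called (-0.062, adjusted p = 0.272), and small subunit genes split into 9 lower and 6 higher.

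**Figure D3:**
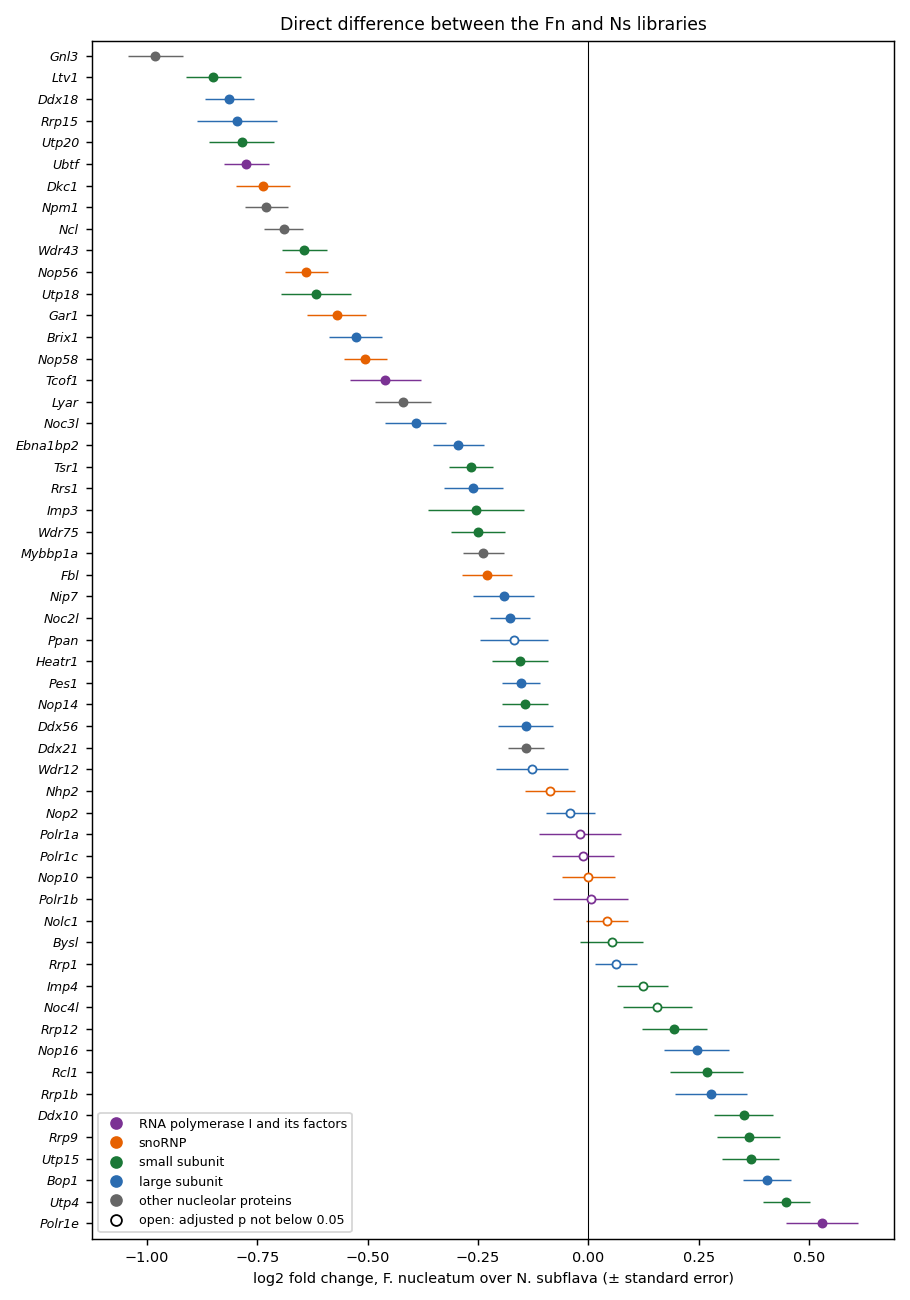
Log2 fold change (± standard error) with Fusobacterium over Neisseria for each of the 55 genes, ordered by value and coloured by role (n = 3 libraries each); open points are not called. Values run from -0.98 for Gnl3 to 0.53 for Polr1e, with 32 called lower and 10 called higher.

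Between Fusobacterium and Helicobacter, 42 of the 55 were lower with Fusobacterium and 4 higher (median -0.36), against 33.5% and 31.8% of all tested genes. Utp20 (-1.01 ± 0.07, adjusted p = 6.61e-11) and Ubtf (-0.99 ± 0.05, adjusted p = 7.62e-14) had the largest falls, and Utp4 (0.42 ± 0.05, adjusted p = 3.25e-07) the largest rise. Between Helicobacter and Neisseria, 26 of the 55 were higher with Helicobacter and 3 lower (median 0.14), against 17.7% and 19% of all tested genes. With no scaling beyond the library total these were 40 and 1. Rcl1 was 0.61 ± 0.08 (adjusted p = 1.34e-06), Rrp1b 0.54 ± 0.08 (adjusted p = 7.7e-06) and Polr1b 0.52 ± 0.08 (adjusted p = 1.82e-05), all higher with Helicobacter. The 3 lower were Npm1 (-0.23 ± 0.05, adjusted p = 0.000547), Nop58 (-0.12 ± 0.05, adjusted p = 0.0455) and Lyar (-0.17 ± 0.06, adjusted p = 0.0398). Of these Npm1 alone was called without Fusobacterium replicate 1, 2 or 3, Helicobacter replicate 2 or 3, Neisseria replicate 1 or untreated replicate 1, where the count was 1.

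Genes of neighbouring steps were set beside the 55. Of 99 other ribosome biogenesis genes tested, 56 fell and 10 rose with Fusobacterium (median -0.21), 16 and 4 with Helicobacter (median -0.03), and 43 and 18 with Neisseria (median -0.13). These were 56.6% and 10.1% with Fusobacterium, 16.2% and 4.04% with Helicobacter, and 43.4% and 18.2% with Neisseria. Among all tested genes 32.4% fell and 32.8% rose with Fusobacterium, 8.36% and 10.5% with Helicobacter, and 25.5% and 25.4% with Neisseria. With no scaling beyond the library total, 30 of the 99 fell and 2 rose with Helicobacter (median -0.09). With Neisseria 67 then fell and 8 rose (median -0.29). The largest falls with Fusobacterium were Tsr2 (-1.15 ± 0.14, adjusted p = 4.12e-07), which chaperones a small subunit protein, Nle1 (-1.12 ± 0.13, adjusted p = 1.08e-07) and the processome gene Pwp2 (-0.93 ± 0.07, adjusted p = 1.37e-10). Las1l, a nuclease of the internal spacer, had the largest rise (0.68 ± 0.05, adjusted p = 3.31e-11), ahead of Nop9 (0.54 ± 0.05, adjusted p = 7.39e-09) and Taf1b (0.39 ± 0.12, adjusted p = 0.006). With Neisseria the largest falls were Urb2 (-1.34 ± 0.08, adjusted p = 2.33e-12), Utp25 (-1.11 ± 0.12, adjusted p = 5.11e-08), listed under its older name Diexf, and Pwp2 (-1.03 ± 0.07, adjusted p = 3.48e-11). Rises with Neisseria were led by Sbds (0.53 ± 0.05, adjusted p = 2.3e-08), Eif6 (0.38 ± 0.05, adjusted p = 1.75e-06) and Fcf1 (0.36 ± 0.08, adjusted p = 0.000396), of which Sbds and Eif6 act at the last maturation step of the large subunit. With Helicobacter the largest falls were Mdn1 (-0.68 ± 0.14, adjusted p = 0.00747), Urb1 (-0.55 ± 0.15, adjusted p = 0.0155) and Dhx33 (-0.50 ± 0.08, adjusted p = 3.9e-05), and the largest rises Sbds (0.30 ± 0.05, adjusted p = 0.000398), Ruvbl2 (0.25 ± 0.05, adjusted p = 0.000909) and Polr1d (0.17 ± 0.06, adjusted p = 0.0384).

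The ribosomal protein genes encode the proteins that the assembly factors build in. Of 79 cytosolic ribosomal protein genes, 20 (25.3%) fell and none rose with Fusobacterium (median -0.10), against 32.4% lower and 32.8% higher among all tested genes. In the same list 36 (45.6%) rose with Helicobacter (median 0.18) and 72 (91.1%) with Neisseria (median 0.34), with no fall with either. Among all tested genes 10.5% rose with Helicobacter and 25.4% with Neisseria. With no scaling beyond the library total, 21 of the 79 rose with Helicobacter and 47 with Neisseria, with medians of 0.12 with Helicobacter and 0.17 with Neisseria. Of 13 RNA exosome genes tested, the nuclease that trims ribosomal RNA ends, 8 fell and 1 rose with Fusobacterium (median -0.32), 1 rose and none fell with Helicobacter (median 0.03), and 3 fell and 2 rose with Neisseria (median -0.04), where 6 fell and 1 rose without scaling. Under TMM, falls and rises were 61.5% and 7.69% with Fusobacterium, 0% and 7.69% with Helicobacter, and 23.1% and 15.4% with Neisseria. The Helicobacter and Neisseria shares were below those of all tested genes. Of 23 subunit genes of RNA polymerases II and III, 8 fell and 10 rose with Fusobacterium (median 0.09), 2 and 3 with Helicobacter, and 9 and 3 with Neisseria, where 15 fell and 2 rose without scaling. Under TMM these were 34.8% and 43.5% with Fusobacterium, 8.70% and 13.0% with Helicobacter, and 39.1% and 13.0% with Neisseria. The shares that fell with Fusobacterium and Helicobacter were close to those of all tested genes.

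**Figure D4:**
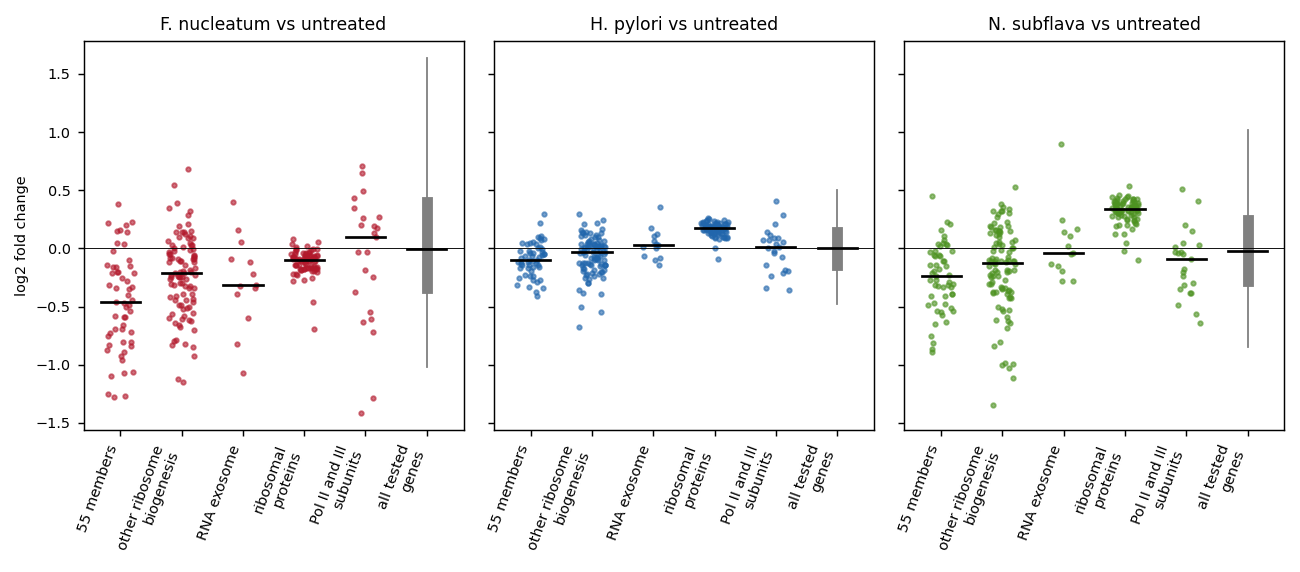
Log2 fold change over untreated organoids, with 1 panel per bacterium, for the 55 genes, 4 comparison lists (each dot a gene, black line the median) and all tested genes (thick bar the interquartile range, thin line the central 90%). The median of the 55 is -0.46 and that of the ribosomal protein genes -0.10 with Fusobacterium, -0.10 and 0.18 with Helicobacter, and -0.24 and 0.34 with Neisseria.

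Some of the 55 carry snoRNA genes in their introns, which are released as the host transcript is spliced. In the GENCODE M21 annotation, 8 of the 55 hold 23 snoRNA genes on their own strand: Nop56 holds 5, Nop58 4, Gnl3, Ncl and Wdr43 3 each, Ppan and Tsr1 2 each and Dkc1 1. All 8 hosts fell with Fusobacterium, with a median of -0.84, and of the 47 others 34 fell and 6 rose, with a median of -0.34. With Neisseria 6 of 8 hosts fell and 1 rose (median -0.30), against 27 and 3 of 47 (median -0.21), and with Helicobacter 4 of 8 hosts fell (median -0.20), against 9 and 2 of 47 (median -0.08). This split was chosen after the values were seen and was not tested.

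Of the 55 genes, 15 overlap a gene on the opposite strand, among them Gnl3 with Pbrm1 and Dkc1 with Mpp1, and whether the counting used strand is not given in the sources used here. Of the 40 with no such overlap, 30 fell and 5 rose with Fusobacterium, 8 and 2 with Helicobacter, and 21 and 4 with Neisseria. Without Helicobacter replicate 1, the library with the high islet markers, 16 of the 55 fell with Helicobacter.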

How the data were processed

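Reads per gene come as raw counts, whole numbers in every cell, in a table deposited by the submitting group. TPM, which scales counts by gene length to a fixed library total, stands beside them in the deposited table, as its headers name it. Coordinates are those of GRCm38, per the submitters' processing notes; the aligner, counting method and use of strand are not given in the sources used here. Another 24 columns (RPKM and CPM) were not used.

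Counts were tested with edgeR 4.0.16 in R 4.3.3 (default filter on low counts, TMM scaling, robust quasi-likelihood fit of all 12 libraries with 1 coefficient per group, no replicate block, two-sided). P-values were adjusted by Benjamini-Hochberg over 12805 genes, which held 99.96% of counts, and called below 0.05. Total counts of 16955155 to 23236260 with a common biological coefficient of variation of 5.71% set the precision. Between libraries of a group, the chi-square of counts per degree of freedom was 2.26 to 11.0, so none looked like 1 library deposited again. The fit was tested on simulated data. Normalised CPM were computed from the counts. Promoters came from a RefSeq table and snoRNA genes from GENCODE M21; 51 of the 55 genes had the same coordinates there.

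The genes, lists and tests were chosen with earlier results of these data known. Values per library are given for the 6 largest called falls and 3 largest called rises with each bacterium among genes with at least 5 TPM, the 3 largest differences each way between Fusobacterium and Neisseria, and the most abundant gene of each role. Alternatives were other scalings, no filter, DESeq2 1.42.0, limma 3.58.1 on log2(TPM + pseudocount), a replicate block, fewer libraries, and leaving out each library. Those for the test of any difference were added after seeing the data.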

Additional observations from a re-analysis of the deposited data

How the results depend on the processing

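Of 217 called changes of single genes, 208 stayed called in the same direction under median-of-ratios scaling, 212 with no filter on low counts, 206 with DESeq2, 205 with only the libraries compared, 200 with only the libraries whose headers carry the mark L1, 192 with no scaling beyond the library total and 186 with limma on log2(TPM + 1) or log2(TPM + 0.1). Without scaling the split of all called genes also moved: 32.1% were higher with Helicobacter over untreated, against 55.8% with TMM, and 26.9% against 49.9% with Neisseria, 65.9% against 48.7% for Fusobacterium over Neisseria and 71.5% against 48.2% for Helicobacter over Neisseria. Deviations from the group means showed no pairing by replicate number. Over 18 pairs of libraries with the same number their correlation ran from -0.0959 to 0.0919 (median 0.0169). Over 36 pairs with different numbers it ran from -0.127 to 0.0994 (median -0.0061), and 5 of 12 libraries correlated best with their own number. With 3 libraries per group this cannot show that the samples were unpaired. With a replicate block 42 of the 55 were lower with Fusobacterium, 14 with Helicobacter and 33 with Neisseria, and 3 of the 217 calls were lost.

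Among the 55, the counts that moved by over 1.5 times in the fits other than those leaving out 1 library were these. Lower with Helicobacter were 24 without scaling and 32 and 31 with limma at pseudocounts 1 and 0.1. With Neisseria over untreated the rises were 1 in each of these 3 settings and the falls 50 in both limma fits. Higher with Fusobacterium over Helicobacter were 9 in both limma fits. Between Fusobacterium and Neisseria 18 were higher and 18 lower without scaling, and 20 and 16 with limma. Between Helicobacter and Neisseria 40 were higher and 1 lower without scaling, and 1 was lower with limma, with only the libraries compared and with only those marked L1. In the comparison lists without scaling, falls of the other ribosome biogenesis genes were 30 with Helicobacter and 67 with Neisseria, rises of the ribosomal protein genes were 21 with Helicobacter and 47 with Neisseria, and falls with Neisseria were 6 in the exosome list and 15 in the polymerase II and III list. With limma at pseudocount 1 these were 35, 68, 13, 47, 6 and 17. The all-gene median moves with these scalings, and the cause beyond that was not tested.

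Leaving out each library in turn gave, for Fusobacterium over untreated, 4 to 6 higher and 39 to 43 lower; Helicobacter over untreated, 2 to 3 and 11 to 16; Neisseria over untreated, 2 to 4 and 29 to 34; Fusobacterium over Helicobacter, 4 to 5 and 38 to 42; Fusobacterium over Neisseria, 9 to 11 and 28 to 33; Helicobacter over Neisseria, 19 to 26 and 1 to 4; and 51 to 54 with any difference.

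Signs turned in 9 genes, with values given for no scaling (where it turned the sign), limma at pseudocount 1 and limma at pseudocount 0.1. Nop58 with Neisseria over untreated was -0.0059, -0.044 and -0.045. With Fusobacterium over Neisseria, Nop14 was 0.033, 0.089 and 0.091, Pes1 0.024, 0.082 and 0.083, Heatr1 0.021, 0.077 and 0.080, Ddx21 0.036, 0.094 and 0.095, and Ddx56 0.035, 0.094 and 0.096. In the limma fits alone Fbl was 0.0065 and 0.0065, Nip7 0.045 and 0.046, and Noc2l 0.058 and 0.059.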
